A study of Drosophila melanogaster with 18 samples.

Results

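The genes described here were the protein-coding genes of Drosophila melanogaster chromosome 4, the small autosome of the fly. They were found by matching the RefSeq transcripts of the deposited tables to the Release 6 gene table, which places 80 protein-coding genes on this chromosome. The rule left out 3 of them, CG33941 and CG46466 were not listed in the tables, and 75 genes remained of 13783 protein-coding genes listed in all. These 75 genes had 284 listed transcripts, with a median of 3 and at most 12 for one gene. The values of a gene's transcripts were summed.

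Chromosome 4 is packed largely as heterochromatin, the compact chromatin in which most genes are silent, yet many of its genes are transcribed. HP1a, which binds methylated histone H3, coats most of its length, and the histone methyltransferase Eggless (Egg) marks much of it. Pof is an RNA-binding protein that binds the transcribed genes of this chromosome. SWI/SNF complexes are ATP-driven remodellers that move and evict nucleosomes. Brahma (Brm) is their ATPase, Osa belongs to the form called BAP, and Polybromo to the form called PBAP. Piwi is the nuclear Argonaute protein that directs transcriptional silencing of transposons with piRNAs, and Maelstrom (Mael) is a further factor of that silencing.

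RNA was sequenced from ovarian somatic cells (OSCs), a cultured line of the follicle cell lineage, 2 days after knockdown of EGFP (the control), piwi, mael or brm. DNA bound by Brm, Polybromo and Osa was sequenced after ChIP from OSCs with EGFP knockdown (control) or piwi knockdown, likewise at 2 days. An input library without antibody was shared by Brm and Polybromo in each condition, and Osa had inputs of its own. The study asked how Piwi and Mael silence transposons whose transcription depends on Brm. Of 18 listed samples, 14 libraries were used, 1 for each group, and the 4 ovary libraries were not analysed here. With 1 library for each group there is no replicate error, and no difference below carries a p-value or a standard error. Intervals cover counting error only. The labels do not say whether the line is a single clone. In such bulk samples, fewer cells that make an RNA and less of it in each cell cannot be told apart.

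The RNA libraries held between 4865534 reads (Brm knockdown) and 9498401 (Mael knockdown), and the ChIP and input libraries between 475226 (Osa input, Piwi knockdown) and 2779826 (Brm ChIP, control). piwi RNA was at 81.5 RPKM (reads scaled to transcript length and library size) in the EGFP library and at 10.95, 57.7 and 21.3 after Piwi, Mael and Brm knockdown. The follicle lineage genes tj, Fas3 and zfh1 were at 93.3, 8.996 and 9.96 RPKM in the EGFP library. The germline genes vas, aub and ovo were between 0 and 0.30 RPKM in all 4 RNA libraries, and nos was not matched. The hemocyte gene He was listed at 0, the glial gene repo was at 0.22 at most, and the neuronal gene elav and the muscle gene Mef2 were at 1.19 and 1.45 RPKM in the EGFP library. elav was at 2.82 RPKM in the Piwi library, and its part in the results on neuronal genes was not tested.

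Most genes of the chromosome were transcribed in control OSCs. In the EGFP library 49 of 75 genes (65.3%) had at least 1 RPKM and 31 (41.3%) had at least 5 RPKM. On the other chromosomes 52.6% and 37.3% of 13708 protein-coding genes did so. By the highest transcript of each gene instead of the sum, the order at 5 RPKM turned, with 21.3% on chromosome 4 and 30.4% elsewhere. 10 genes of chromosome 4 (13.3%) were listed at 0, against 33.4% elsewhere. The median RNA level was 3.28 RPKM for chromosome 4 and 1.46 for the other chromosomes, from 1.17 on arm 2L to 2.43 on the X chromosome. This ratio of 2.24 depended on how transcripts were added up. Set against genes elsewhere with the same number of listed transcripts, an addition made after the values were seen, the median ratio was 0.94, and 37 of 75 genes were above 1. By the highest transcript of each gene the ratio was 1.38.

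**Figure D1:**
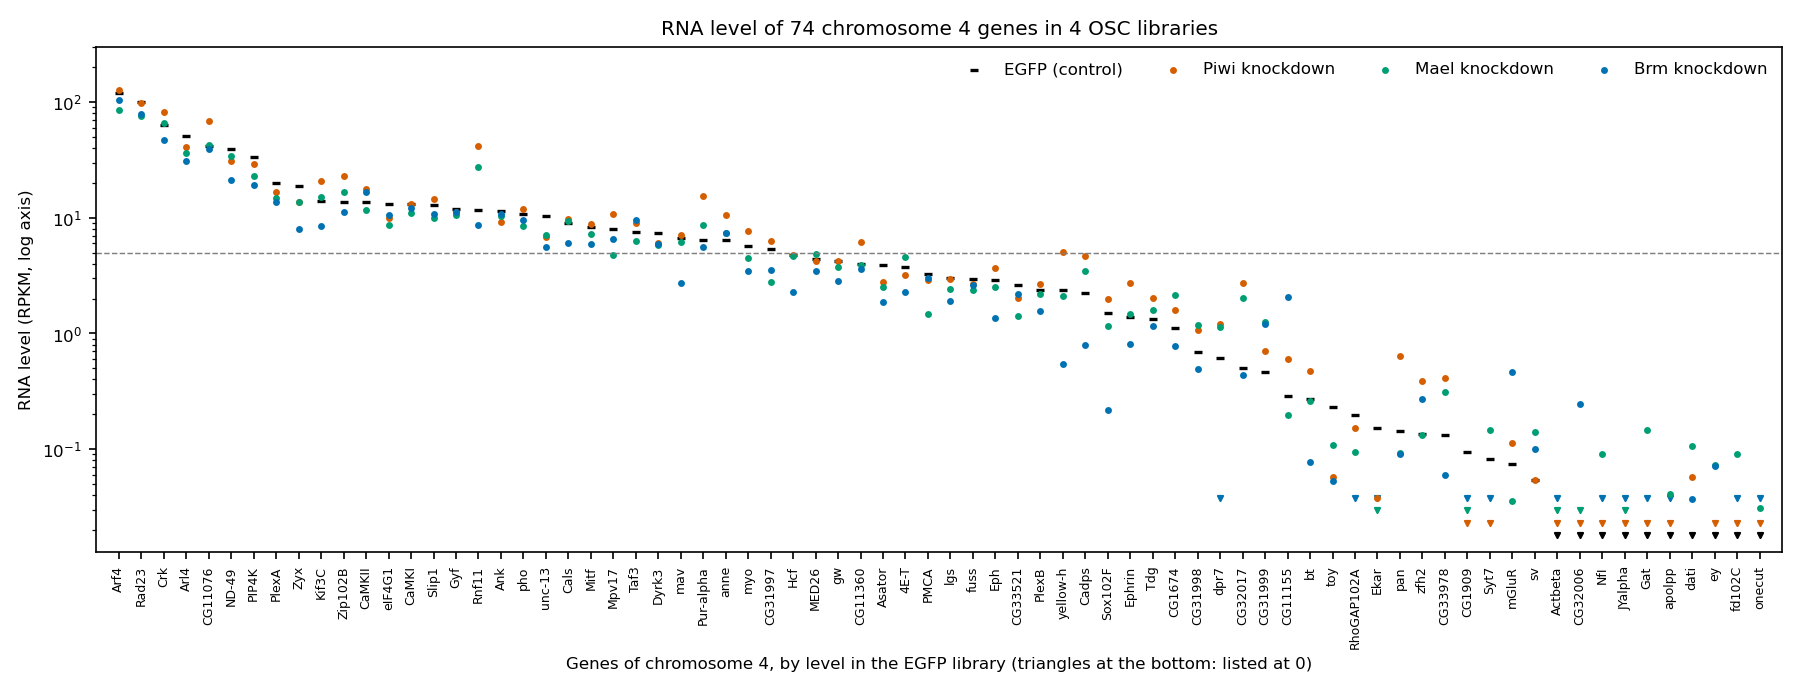
RNA level (RPKM, log axis) of 74 of the 75 chromosome 4 genes in the EGFP, Piwi, Mael and Brm knockdown libraries, 1 library each, ordered by the EGFP level; the dashed line is 5 RPKM, the floor for testing, and triangles at the bottom (at staggered heights for the 4 libraries) mark values listed at 0. In the EGFP library, 30 of the plotted genes lie at or above the floor and 10 are listed at 0, and the 4 libraries of most expressed genes lie close together, with Rnf11 apart in the Piwi and Mael knockdowns.

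The highest RNA level was that of Arf4, followed by Rad23. Arf4 (chr4:1124167-1125325), a small GTPase of the ADP-ribosylation factor family, was at 120.5 RPKM in the EGFP library, 127.6 in the Piwi, 84.8 in the Mael and 103.5 in the Brm knockdown. Rad23 (chr4:308093-310822), which delivers ubiquitinated proteins to the proteasome and acts in nucleotide excision repair, was at 100.2, 99.3, 76.2 and 79.6 RPKM in the same order. Both genes were lowest in the Mael library. The signalling adaptor Crk followed with 64.1 RPKM in the EGFP library, the small GTPase Arl4 with 50.6, CG11076 with 41.6, the respiratory complex I subunit ND-49 with 39.6 and the lipid kinase PIP4K with 33.3. The next genes in this order were the semaphorin receptor PlexA (20.1), the focal adhesion protein Zyx (18.8), the kinesin Kif3C (14.04), the zinc transporter Zip102B (13.8), the calcium-dependent kinases CaMKII (13.6) and CaMKI (13.1), the translation initiation factor eIF4G1 (13.2) and Slip1 (12.8). From Kif3C to Slip1 the levels lay within 14.04 and 12.8 RPKM, from 291 reads for CaMKI to 694 for eIF4G1, and 1 library gives no spread to order them by.

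Genes for transcription factors stood at the low end. Of 16 genes on the list of transcription and chromatin factors, 3 reached 5 RPKM, 9 were under 1 RPKM and 5 were listed at 0, with a median of 0.19 RPKM. This role list and those below are partial. On none of them were 23 of the 75 genes, among them Taf3 (7.50 RPKM), CaMKI and 4E-T. The highest were pho, a DNA-binding protein of the Polycomb group (10.9 RPKM), Mitf, a regulator of lysosomal genes (8.33), Pur-alpha, which binds single-stranded nucleic acids (6.47), and the host cell factor Hcf (4.74). The paired-box genes of eye and sense organ development were nearly silent. ey was listed at 0 in the EGFP and Piwi libraries and had 0.07 RPKM in both the Mael and the Brm library. toy had 8 reads (0.23 RPKM) in the EGFP library and 0.06, 0.11 and 0.05 RPKM in the Piwi, Mael and Brm knockdowns. sv had 0.05, 0.05, 0.14 and 0.10 RPKM. onecut, dati, NfI and fd102C were also listed at 0 in the EGFP library. At this depth such values rest on a handful of reads, and no difference among the libraries could be seen.

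Signalling genes included members of single pathways at very different levels. Of 14 genes for signalling and guidance, 8 reached 5 RPKM and 2 were under 1 RPKM. Of 3 ligands of the TGF-beta family, mav was at 6.67 RPKM in the EGFP library and myo at 5.67, while Actbeta, the activin-like ligand, was listed at 0 in all 4 RNA libraries. Of 2 Wingless pathway genes, the coactivator lgs was at 3.03 RPKM and the DNA-binding factor pan at 0.14. These ligands and Wingless genes were chosen after their values were seen. The receptor Eph and its ligand Ephrin were at 2.90 and 1.39 RPKM, and the semaphorin receptors PlexA and PlexB at 20.1 and 2.39.

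Of 9 genes listed as synaptic or neuronal, 3 reached 5 RPKM and 5 were under 1 RPKM. Kif3C, unc-13, which primes synaptic vesicles for release (10.4 RPKM), and the cadherin-like Cals (9.10) were expressed, Cadps, a factor of dense-core vesicle release, was at 2.23, and the GABA transporter Gat was listed at 0. Of 5 genes for RNA, translation and DNA repair none was under 1 RPKM. They included eIF4G1, the translation regulator Gyf (11.97), and gw, a core protein of miRNA silencing (4.25). Of 6 genes for transport, 3 reached 5 RPKM, and JYalpha and apolpp were listed at 0. In the pair of cytoskeletal genes, Ank, the ankyrin that links membrane proteins to spectrin, was at 11.4 RPKM, and bt, which encodes the giant muscle protein projectin, at 0.27.

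The 31 genes at or above 5 RPKM had a median span of 7637 bases, and the 44 below it one of 12205 bases. Both classes had a median of 3 listed transcripts. Across the 75 genes span and RNA level had a Spearman correlation of -0.28, against 0.13 over the 13708 genes elsewhere. Genes share the library here, and the number of listed transcripts enters the summed RNA level. Its relation to span was not tested.

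In each knockdown the tested features were those that averaged 5 RPKM or more across the knockdown and EGFP libraries, and the call was a 2-fold difference on the log2(RPKM + 1) scale. The difference is given relative to the median of all tested features, which as deposited lay at -0.04, -0.12 and -0.34 (log2) in the Piwi, Mael and Brm comparisons. All 3 comparisons share the EGFP library. The pseudocount understates the differences of weakly expressed genes. Since the floor is on the average, CG11360 was tested through the Piwi library alone, and Mpv17 and myo were tested on Mael knockdown through the EGFP library alone.

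On Piwi knockdown 32 genes of the chromosome were tested, 2 were called higher and none lower, where 1.25% of 5357 features were called higher and 0.411% lower. Rnf11 and Pur-alpha were the 2. The median log2 ratio of the 32 genes was 0.15, with 22 above 0. Their quartiles were -0.15 and 0.43, against -0.18 and 0.20 over all tested features. Medians of the other arms ran from -0.03 (2R) to 0.04 (X). By counting error alone, 11 genes lay above the median feature and 6 below it, where 17% and 14.4% of all tested features did. The interval narrows with reads, of which the median tested gene had 770 over both libraries and the median tested feature 623. In the Mael comparison these medians were 777.5 and 623, and in the Brm comparison 545 and 468.

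Rnf11 (chr4:314923-331387), a RING finger protein, showed the largest difference. It was at 11.7 RPKM (269 reads) in the EGFP library, 41.9 (901 reads) in the Piwi, 27.5 (626 reads) in the Mael and 8.66 (107 reads) in the Brm knockdown. The Piwi and Mael libraries were high and the Brm library was close to the control. The log2 ratio was 1.80 on Piwi knockdown (counting interval of the reads 1.51 to 2.08) and 1.29 on Mael knockdown (0.97 to 1.57). It was -0.06 on Brm knockdown (-0.57 to 0.38). A single one of its 2 listed transcripts, of 2311 bases, held the rise, from 9.92 RPKM in the EGFP library to 39.7 in the Piwi and 26.2 in the Mael knockdown, with 7.47 in the Brm knockdown. The other transcript had 1.77, 2.19, 1.35 and 1.19 RPKM. The shorter transcript also had 21.7 RPKM in the Brm and Polybromo input of control cells. The median over chromosome 4 genes in that input was 3.65 by the highest transcript of each gene and 7.85 by the sum. In the control Osa ChIP the shorter transcript had 82.4 RPKM, against 12.2 in its input. The part of these DNA values in the RNA result was not tested. Rnf11 overlaps PMCA over 3195 bases of the annotation, and whether reads were counted by strand is not given in the sources used here.

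Pur-alpha (chr4:558016-567257) had 6.47 RPKM (134 reads) in the EGFP library, 15.4 (320 reads) in the Piwi, 8.63 (185 reads) in the Mael and 5.58 (58 reads) in the Brm knockdown. The Piwi library was the highest of the 4. Its log2 ratio was 1.17 on Piwi knockdown (0.88 to 1.74), and 0.86 with a pseudocount of 5 RPKM, under the 2-fold rule. It was 0.49 on Mael knockdown and 0.15 on Brm knockdown. In contrast to Rnf11, its 3 longest transcripts were all higher in the Piwi library, from 2.19 to 4.03, 1.58 to 4.78 and 1.31 to 3.405 RPKM.

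The next genes did not reach 2-fold. CG11076 was at 41.6 RPKM in the EGFP and 68.9 in the Piwi library (log2 0.75, interval 0.53 to 1.02), and its 3 transcripts were all higher there. Zip102B, which lies beside Rnf11, was at 13.8 and 23.1 RPKM (0.74), anne at 6.42 and 10.7 (0.69) and Kif3C at 14.04 and 21.0 (0.59). CG11076 overlaps a neighbouring gene over 274 bases. At the other end, unc-13 was at 10.4 and 6.85 RPKM (-0.50), Zyx at 18.8 and 13.7 (-0.39), eIF4G1 at 13.2 and 9.96 (-0.33), ND-49 at 39.6 and 31.0 (-0.30) and Arl4 at 50.6 and 40.6 (-0.27). Among the 3 tested transport genes (Zip102B, anne and Slip1) the median was 0.69, with none past 2-fold. Among the 8 tested signalling genes it was -0.01, and among the 3 tested genes of RNA, translation and repair -0.05, with none past 2-fold in either list. Of the 3 tested genes on the list of transcription and chromatin factors only Pur-alpha was called.

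**Figure D2:**
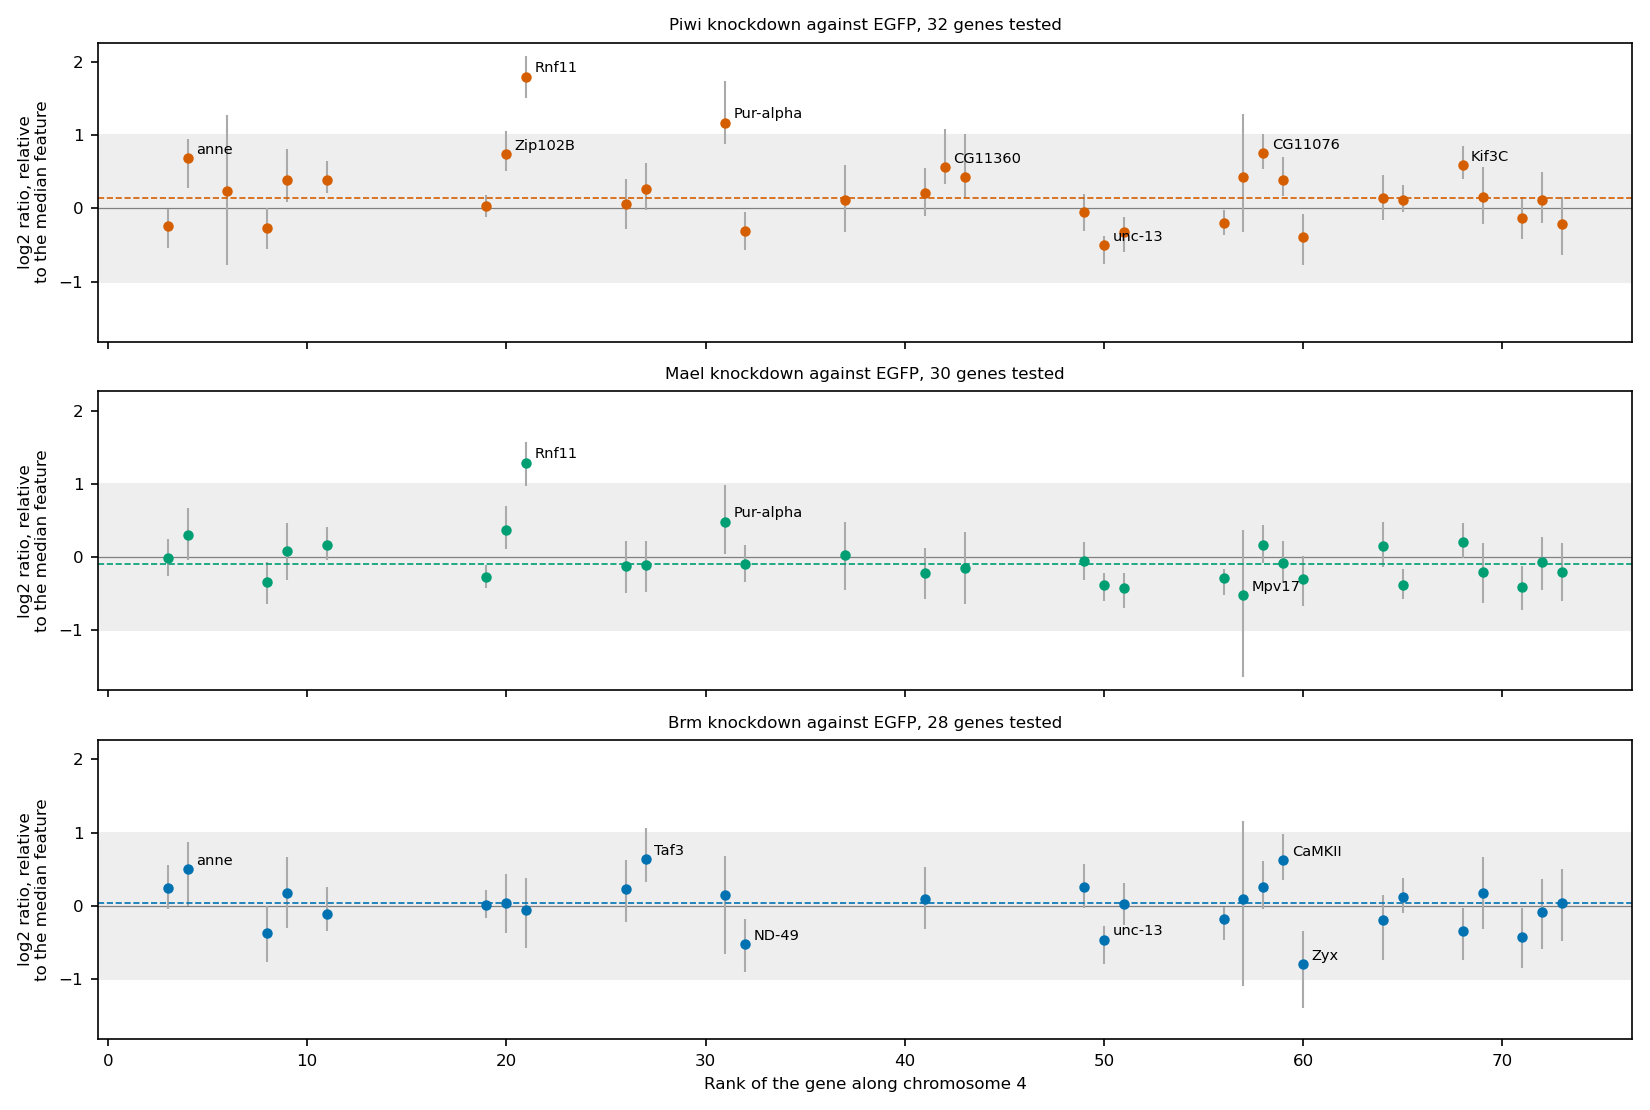
Difference in RNA between each knockdown and the EGFP library for the tested chromosome 4 genes, by their rank along the chromosome. Points are log2(RPKM + 1) differences relative to the median feature, grey bars 95% counting intervals of the read ratio without pseudocount, the dashed line the median of the tested genes, and the grey band the range under 2-fold. Rnf11 lies above the band in the Piwi and Mael panels and Pur-alpha in the Piwi panel, and no point leaves the band in the Brm panel.

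On Mael knockdown 30 genes were tested, Rnf11 alone was called higher and none was called lower, where 0.699% of 5292 features were called higher and 0.302% lower. The median log2 ratio was -0.09, with 10 of 30 above 0. The quartiles were -0.28 and 0.13, against -0.18 and 0.20 over all tested features. Medians of the other arms ran from -0.02 (2R) to 0.05 (X). By counting error alone, 3 genes lay above the median feature (Rnf11, Pur-alpha and Zip102B) and 7 below it, where 15.3% and 14.4% of all tested features did. After Rnf11 came Pur-alpha (0.49), Zip102B (16.7 RPKM, log2 0.38), anne (7.46 RPKM, 0.31) and Kif3C (15.01 RPKM, 0.21). The lowest was Mpv17, a protein of the inner mitochondrial membrane, with 7.94 RPKM in the EGFP and 4.75 in the Mael library (-0.52), but from 49 and 31 reads, with an interval of -1.63 to 0.36. eIF4G1 (8.75 RPKM, -0.42), PIP4K (22.9 RPKM, -0.40), unc-13 (7.04 RPKM, -0.38) and Arf4 (84.8 RPKM, -0.38) followed. The 3 tested genes of RNA, translation and repair had a median of -0.27 and the 8 signalling genes one of -0.18, with none past 2-fold.

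On Brm knockdown 28 genes were tested and none was called in either direction, where 3.86% of 5083 features were called higher and 4.13% lower. The median log2 ratio was 0.04, with 17 of 28 above 0. The quartiles were -0.18 and 0.19, against -0.34 and 0.32 over all tested features. Medians of the other arms ran from -0.04 (3R) to 0.03 (3L). By counting error alone, 3 genes lay above the median feature and 6 below it, where 21.9% and 22.4% of all tested features did. The 3 above were the TFIID subunit Taf3, with 7.50 RPKM in the EGFP and 9.52 in the Brm library (log2 0.64), CaMKII, with 13.6 and 16.8 RPKM (0.62), and anne, with 6.42 and 7.34 RPKM (0.50). Zyx was lowest, with 18.8 RPKM (333 reads) in the EGFP and 8.06 (78 reads) in the Brm library. Its log2 ratio was -0.79 (interval -1.39 to -0.34), and -1.13 as deposited, without setting the median feature to 0. As deposited it was the only tested gene of the chromosome past 2-fold lower, where 10.8% of features were. ND-49 followed with 21.3 RPKM in the Brm library (-0.53), unc-13 with 5.59 (-0.46), PIP4K with 19.3 (-0.42) and Arl4 with 30.8 (-0.36).

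The genes under the floor were 43, 45 and 47 in the Piwi, Mael and Brm comparisons, and the following ones were chosen after their values were seen. On Piwi knockdown 7 of the 43 had a counting interval above the median feature and none had one below it, where 2.56% and 2.01% of all features under the floor did. These shares are a poor measure for the chromosome, since the median feature under the floor had 0 reads and the median gene of the 43 had 34 over both libraries. Cadps had 2.23 RPKM (107 reads) in the EGFP library, 4.68 (226 reads) in the Piwi, 3.50 (180 reads) in the Mael and 0.80 (21 reads) in the Brm knockdown. CG32017 went from 0.51 RPKM in the EGFP library to 2.73 in the Piwi and 2.03 in the Mael knockdown, and had 0.44 in the Brm knockdown. It overlaps Kif3C over 14693 bases. On Mael knockdown 5 of 45 genes lay above and 1 below, where 1.59% and 1.41% of such features did. The 1 below was PMCA, the plasma membrane calcium pump (3.28 and 1.46 RPKM). On Brm knockdown 3 of 47 genes lay above and 6 below, where 2.3% and 3.69% of such features did. Among the 6 was mav, with 6.67 and 2.74 RPKM. CG11155 had 10 reads in the EGFP, 20 in the Piwi, 8 in the Mael and 37 in the Brm library, or 0.29, 0.60, 0.20 and 2.06 RPKM.

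The proteins known to act on this chromosome are encoded elsewhere. The gene for HP1a was at 276.0, 256.5, 226.1 and 176.6 RPKM in the EGFP, Piwi, Mael and Brm libraries, with a log2 ratio of -0.06, -0.17 and -0.31. egg was at 11.1, 7.76, 11.9 and 5.38 RPKM, with -0.43, 0.21 and -0.59. Pof was under the floor, at 3.80, 3.30, 3.62 and 1.12 RPKM. Of 15 such genes listed, none that was tested was past 2-fold in any knockdown. HP5, an HP1a-interacting protein, had 3.31 RPKM in the EGFP and 7.19 in the Piwi library (0.97), and it reached the floor through the Piwi library alone. The histone demethylase gene Kdm4A, with 4.59 and 1.99 RPKM (-0.86), was not tested.

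Reads on the 75 genes made up 0.210% of the reads on protein-coding genes in the EGFP RNA library (95% Clopper-Pearson interval 0.207% to 0.214%), 0.236% in the Piwi, 0.183% in the Mael and 0.174% in the Brm library. In DNA their share was larger. The input of Brm and Polybromo gave 1.48% in the control and 1.46% in the Piwi knockdown. The Osa inputs gave 0.489% (interval 0.464% to 0.516%) in the control and 0.679% in the Piwi knockdown. So the 2 inputs of one condition differed 3.03-fold on chromosome 4 in the control and 2.15-fold in the Piwi knockdown. On the other arms the same ratio ran from 0.88 (X) to 1.07 (3L) in the control. 12 of the 75 genes in the control Osa input and 13 in the Piwi knockdown Osa input were listed at 0, and none in the other inputs. Of protein-coding genes elsewhere, 21.8% and 27.5% were listed at 0 in these Osa inputs. In the Brm and Polybromo inputs 1.36% (control) and 2.11% (Piwi knockdown) of them were. Zeros were therefore no more frequent on chromosome 4 than elsewhere, but genes differ in reads, so this is not a like comparison. In the control Brm and Polybromo input the median gene had 37 reads on chromosome 4 and 13 elsewhere. The control Osa input gave 10 and 12. Why the inputs differ was not tested.

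The input median of chromosome 4 genes over that of genes elsewhere was 1.33 and 1.25 in the Brm and Polybromo inputs (control, then Piwi knockdown), and 0.44 and 0.76 in the Osa inputs. Kif3C had the highest control input of all 75, with 63.5 RPKM (371 reads), and 49.9 RPKM in the Brm ChIP, 61.9 in the Polybromo ChIP and 28.8 in the Osa ChIP. It has 1 listed transcript, and these DNA values were above its own RNA value of 14.04 RPKM, though RPKM of RNA and of DNA are not on a shared scale.

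**Figure D3:**
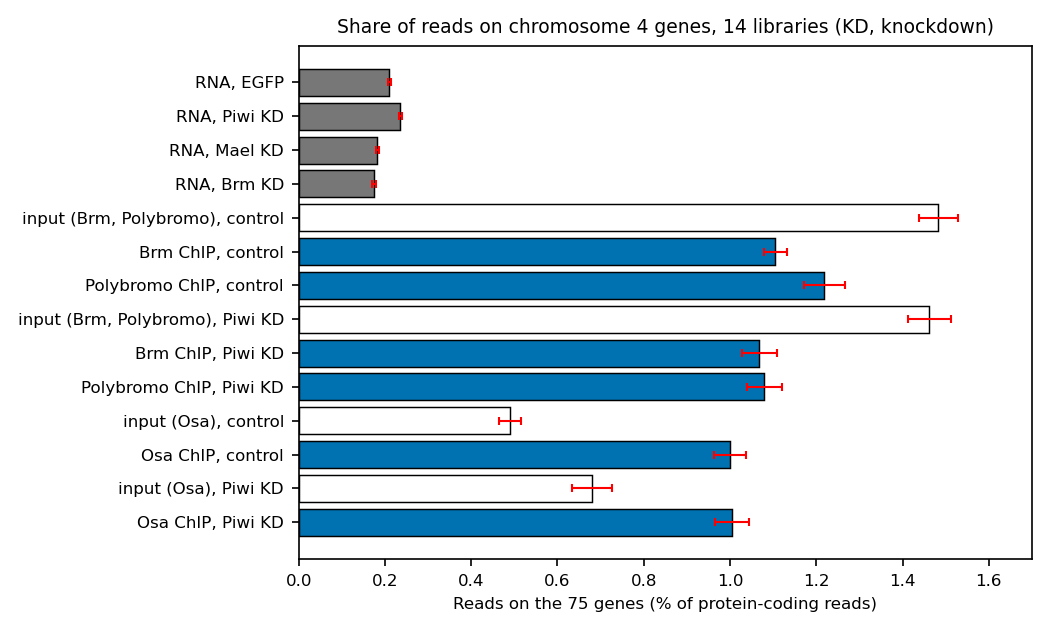
Reads on the 75 chromosome 4 genes as a percentage of reads on protein-coding genes in each of the 14 libraries (grey, RNA; white, input; blue, ChIP; red bars, 95% Clopper-Pearson intervals, counting error only). The RNA shares lie between 0.174% and 0.236%, the Brm and Polybromo inputs lie above their ChIP libraries, and the Osa inputs lie below theirs.

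Brm and Polybromo ChIP held a smaller share of chromosome 4 reads than their own input in both conditions, and a larger share than the Osa input. The Brm ChIP had 1.104% in the control, a ratio of 0.745 to its input (interval 0.716 to 0.774), and 1.07% in the Piwi knockdown, a ratio of 0.730 (0.694 to 0.768). The Polybromo ChIP had 1.22% and 1.08%, with ratios of 0.821 (0.782 to 0.862) and 0.738 (0.702 to 0.777). For Brm the same ratio lay between 0.978 and 1.05 on the other 5 arms in both conditions. For Polybromo it lay between 0.910 and 1.29 there, with arm 2L at the top. Over the Osa input, an alternative chosen after the values were seen, the chromosome 4 ratios in the control and the Piwi knockdown were 2.26 (2.13 to 2.39) and 1.57 (1.45 to 1.701) for Brm, and 2.49 (2.33 to 2.66) and 1.59 (1.47 to 1.72) for Polybromo.

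Osa likewise gave opposite results with the different inputs. The Osa ChIP share was 0.9996% in the control and 1.004% in the Piwi knockdown conditions. Over its own input the ratio was 2.04 (1.92 to 2.18) in the control and 1.48 (1.37 to 1.599) in the Piwi knockdown. Over the input of Brm and Polybromo, an alternative chosen after the values were seen, it was 0.674 (0.643 to 0.707) and 0.687 (0.652 to 0.722). For all 3 proteins the direction therefore rests on the choice of input.

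**Figure D4:**
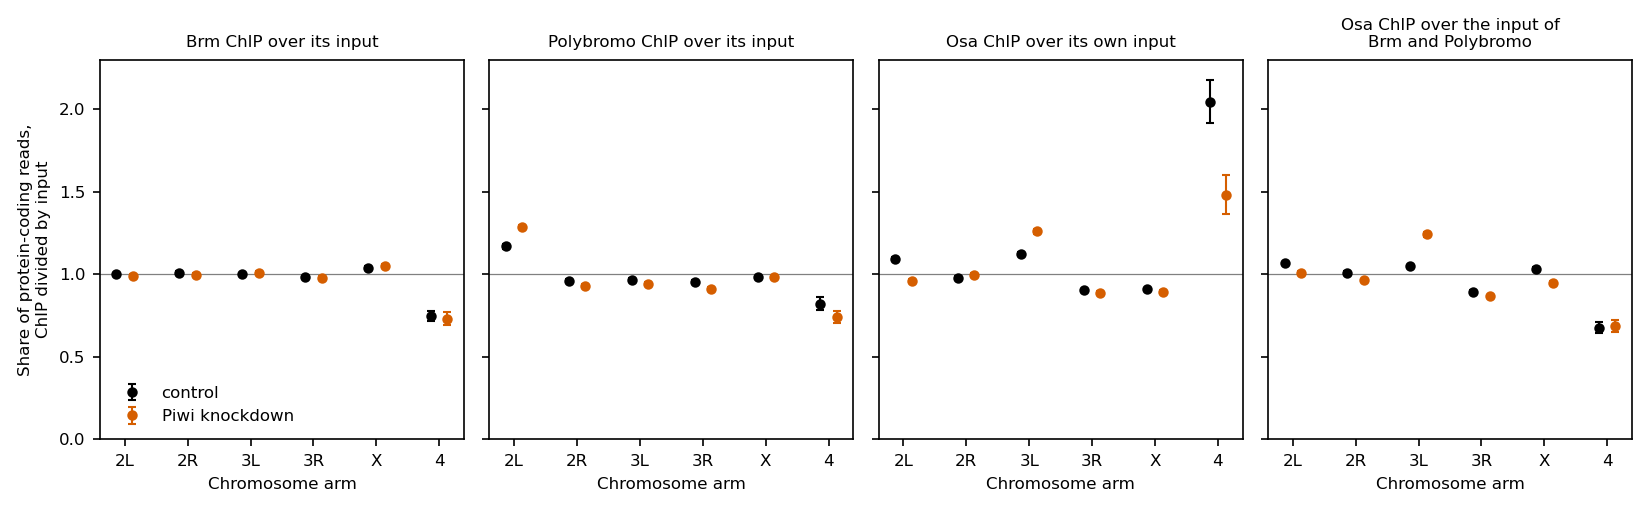
Share of protein-coding reads on each chromosome arm in the ChIP library divided by the share in the input, in control (black) and Piwi knockdown (orange) OSCs, 1 library each, with 95% intervals of counting error (smaller than the points on the large arms). Chromosome 4 lies below 1 for Brm (0.745 and 0.730) and Polybromo (0.821 and 0.738), and for Osa it lies above 1 over the Osa input and below 1 over the other input.

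Gene by gene, enrichment was the log2 of ChIP over input RPKM, relative to the median of the features kept, those with an input at or above the median of all features. The floor is on the same input that divides the ChIP value. A gene that passes through an input count raised by counting error has a lower enrichment for that reason. For Brm in control cells 63 of the 75 genes were kept, with a median of 40 input and 65 ChIP reads each. Their enrichment had a median of -0.12, with 23 of 63 above 0, and ranged from -0.75 to 0.62. Over the mean of the Brm and Polybromo input and the Osa input, which kept 30 genes, the median was 0.38. Over the Brm and Polybromo input none of the 63 genes was past 2-fold, where 4.53% of 8478 kept features were past it higher and 3.74% lower. By counting error alone 3 genes lay above the median feature and 12 below it, where 12.6% and 6.67% of features did. Kept features had a median of 18 input and 33 ChIP reads, fewer than the 63 genes. More reads narrow the interval and make 2-fold values from counting error rarer, so these shares are not a like background. The medians of the other arms ran from -0.02 (2R) to 0.07 (X).

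The genes highest for Brm were ey (5.87 RPKM in the input, 8.47 in the ChIP, log2 0.62), Pur-alpha (7.17 and 10.04, 0.60), Zip102B (6.27 and 8.58, 0.56), Zyx (6.94 and 8.70, 0.47) and Rnf11 (25.9 and 30.9, 0.45). Of these, ey had no RNA in the EGFP library and the other 4 were above 5 RPKM. The lowest were Gat (7.81 and 3.01, -0.75), the transcription factor NfI (7.90 and 3.41, -0.66), Mitf (12.3 and 6.68, -0.51), the synaptotagmin Syt7 (9.75 and 5.18, -0.50) and CG11155 (9.90 and 5.40, -0.47). Each value rests on 19 to 89 input reads.

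Expressed and weakly expressed genes lay further apart in Brm enrichment on the other chromosomes than on chromosome 4, a difference with no test. Genes elsewhere with at least 5 RPKM of RNA had a median enrichment of 0.25 (3014 genes) and those under 1 RPKM one of -0.22 (3034 genes). On chromosome 4 the medians were 0.01 (27 genes) and -0.22 (21 genes). Spearman correlations between RNA level and Brm enrichment were 0.31 over the 63 genes and 0.50 over 7386 genes elsewhere, where all points share 1 ChIP, 1 input and 1 RNA library.

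**Figure D5:**
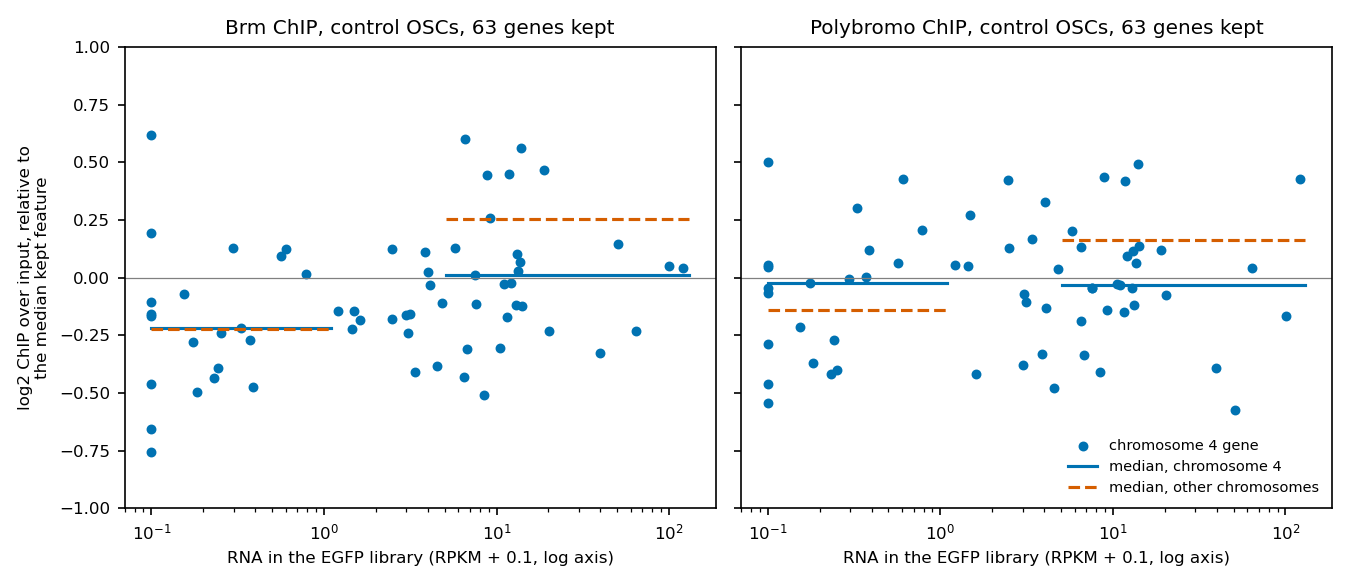
Control enrichment of Brm and of Polybromo (log2 ChIP over input, relative to the median kept feature) against RNA in the EGFP library (RPKM + 0.1, log axis) for the 63 kept chromosome 4 genes, with the medians of genes under 1 and at or above 5 RPKM on chromosome 4 (solid) and elsewhere (dashed). At or above 5 RPKM the Brm median is 0.01 on chromosome 4 and 0.25 elsewhere, and under 1 RPKM both are at -0.22.

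For Polybromo the same 63 genes had a median of -0.03, with 29 above 0, a range from -0.57 to 0.50, and none past 2-fold, where 3.55% of features were past it higher and 6.2% lower. Here too the kept genes had more reads than all kept features, with a median of 25 against 12 in the ChIP. Over the mean of both inputs the median of the 30 genes kept was 0.48. The expressed genes of the chromosome were at -0.03 and those elsewhere at 0.16, while those under 1 RPKM were at -0.02 and -0.14. Among the highest genes were the forkhead gene fd102C (0.50), Zip102B (0.49), CG32017 (0.43) and Arf4 (0.43, from 9 input reads). The lowest were Arl4 (-0.57, from 9 input reads), onecut (-0.55), the Mediator subunit MED26 (-0.48), dati (-0.46) and Sox102F (-0.42). Zip102B was among the 5 highest for both proteins. Both are set against 1 input, so a low input count raises both values together.

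For Osa only 22 genes were kept, since most were low in the Osa input. Their median was 0.78, with 7 past 2-fold higher and 2 lower, where 19.1% and 24.3% of features were. The 22 genes again had more reads than all kept features, with a median of 30.5 against 14 in the ChIP. With the input of Brm and Polybromo the median was -0.14. Rnf11 had 12.2 RPKM (26 reads) in the Osa input and 84.9 (311 reads) in the ChIP, a log2 of 3.92. Rnf11 was also at 25.9 RPKM in the input of Brm and Polybromo, below its Osa ChIP value. unc-13 (7.54 and 12.9 RPKM, 1.93), Kif3C (19.8 and 28.8, 1.78), pan (7.72 and 11.2, 1.73) and Hcf (15.3 and 17.2, 1.42) followed. The lowest were toy (13.3 and 0.998, -1.22), mGluR (12.4 and 0.94, -1.17), Arf4 (10.5 and 0.90, -0.97, from 9 reads and 1 read), dati (10.9 and 2.07, -0.48) and zfh2 (9.58 and 2.09, -0.31). These low values are not independent of the floor, since a high Osa input both kept the genes and lowered their ratio.

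For the change on Piwi knockdown, features were kept where the input averaged over both conditions was at or above the median of all features. This again kept 63 genes for Brm and Polybromo, 59 of them shared with the control set. CG11076, CG31997, gw and zfh2 were new, and Arl4, Ekar, Taf3 and fd102C dropped out. A gene could pass through a high input in 1 condition alone, which by itself lowers its enrichment there, and 9 of the 63 did not reach the floor in both. The change in Brm enrichment had a median of 0.01, with 1 gene past 2-fold higher and 2 lower of 63, where 6.38% and 8.24% of features were. Genes kept in the control had more reads than the features kept there, so these shares are not a like background either. Crk was the highest, at 1.14, but with 17 and 25 reads in the control input and ChIP and 3 and 6 in the knockdown. MED26 (0.97), ND-49 (0.95), mav (0.83) and sv (0.78) followed. CG32017 was at -1.08. It had 6.74 RPKM (34 reads) in the control input and 6.25 (65 reads) in the control ChIP, and 11.04 (47 reads) and 3.43 (16 reads) in the knockdown. The other low genes were CG31997 (-2.19, from 4 and 9 reads in the control and 6 and 0 in the knockdown), Zyx (-0.72), Actbeta (-0.62) and RhoGAP102A (-0.57).

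Polybromo had a median change of -0.07, with 2 genes past 2-fold higher and 3 lower, where 8.72% and 9.21% of features were. The same limit of unequal reads holds for these shares. Crk (1.63), ND-49 (1.25), onecut (0.94), Zip102B (0.62) and the translational repressor 4E-T (0.58) were highest. CG31997 (-1.36), CG32017 (-1.25), yellow-h (-1.003), Actbeta (-0.91) and CG11155 (-0.74) were lowest. CG32017 had 8.46 RPKM (32 reads) of Polybromo ChIP in the control and 4.196 (18 reads) in the knockdown. Its Brm and Polybromo values share the inputs, in which it was higher in the knockdown, and its RNA was at 0.51 and 2.73 RPKM.

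For Osa 23 genes were kept, with a median change of -0.64, 3 past 2-fold higher and 7 lower, where 29% and 27.1% of features were. Of the 23, 12 reached the input floor in 1 condition only, so the rule bears on the sign of their change. With the floor required in both conditions, an alternative chosen after the values were seen, 12 genes were kept, with a median of -0.18, 1 past 2-fold higher and 1 lower, where 20.9% and 19.9% of features were. These were mGluR (2.23) and Rnf11 (-1.23). Rnf11 had 12.2 RPKM (26 reads) in the control Osa input and 34.0 (39 reads) in the knockdown one. Its Osa ChIP was at 84.9 RPKM (311 reads) in the control and 120.9 (353 reads) in the knockdown. The negative value thus came with a higher Osa input and not with a lower ChIP value. In the Brm and Polybromo input Rnf11 was at 25.9 and 29.1 RPKM. With the input of Brm and Polybromo the median change was 0.02. The most negative values came from genes with almost no control input. CaMKI (-4.70) and Dyrk3 (-4.33) had 0 reads in the control Osa input, against 16 and 25 in the knockdown, and myo (-3.17) had 1 against 21. ey (-1.85) and Gyf (-1.58) followed. The highest were toy (2.29), mGluR (2.17), dati (1.43), Hcf (0.52) and zfh2 (0.51). toy, mGluR and dati had 38, 47 and 45 reads in the control Osa input and 7, 9 and 3 in the knockdown.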

How the data were processed

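The deposited values were RPKM for each listed feature (35502 in all) in 1 RNA table and 1 ChIP table. The submitters' processing notes name Bowtie2 2.2.4 and dm6, and how the authors counted reads is not given in the sources used here. No sample's labels matched 4 further RNA columns, which were left out. The unit was read from the values: each library's total was the number that turned RPKM times annotated length into whole reads (within 0.01), and the recovered reads of the RNA features added up to the library totals. RNA intervals use 1 fragment for 2 reads. This is approximate, since between 62.9% (EGFP) and 69.5% (Brm knockdown) of the nonzero read counts in an RNA library were even. The intervals are 95% limits by the binomial (Clopper-Pearson) formula on halved counts, which need not be whole. They have no pseudocount and are relative to the median feature. For ChIP, a normal approximation on the log scale was used.

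RefSeq transcripts were matched to the Release 6 gene table (34925 of 35327), summed for each gene, and compared as described beside each result. Coordinates are those of the gene, 1-based, in Release 6 (dm6). In the ChIP table features are transcripts, so introns and promoters were not seen. To ChIP and input was added the percentile 5 of all nonzero input values. The gene set, role lists and comparisons were chosen with earlier results of these data known. Genes were named by rule: the 15 highest in control RNA, all called genes, the 5 highest and 5 lowest of each comparison, up to 4 of each role list, and ey, toy and sv. Others are marked in the text as picked with their values known, apart from genes listed for their count of 0 or for how they met a floor, markers, regulators elsewhere and a pathway partner of a named gene. Promoter and protein sequences were not used here. The values of 1 gene, which the counts and medians include, are not reported here. The steps were tested on simulated reads. Python 3.11.15, numpy 2.4.6, pandas 2.3.3, scipy 1.17.1 and matplotlib 3.10.9 were used.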

Additional observations from a re-analysis of the deposited data

How the results depend on the processing

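No paired analysis was possible because each group had 1 library, and for the same reason no replicate could be left out. The ChIP values rest on few reads, with a median for each gene of 24 in the control Polybromo ChIP and of 10 and 7 in the Osa inputs (control, then Piwi knockdown). The RNA medians ran over all settings from 0.11 to 0.23 (Piwi), -0.22 to 0.00 (Mael) and -0.29 to 0.07 (Brm), so the sign was kept for Piwi alone. Control Brm medians ran from -0.28 to 0.38 and Polybromo medians from -0.17 to 0.48, the highest with the mean of both inputs. Where a count or value moved below and no reason is given, the cause was not tested.

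On Piwi knockdown 1 gene was called higher with a pseudocount of 5 RPKM, by the highest transcript, or without the 5 genes of highest control input (Rnf11 among them). On Mael knockdown 2 were with a floor of 1 RPKM or none, and 0 without those 5 genes. On Brm knockdown 1 was called higher with a floor of 1 RPKM or none, and 1 lower as deposited (10.8% of features). For the other RNA settings the share of all features called is not given, and the floor also changes the number tested. These counts therefore have no background to be read against. The share of genes expressed was 21.3% by the highest transcript, 65.3% at 1 RPKM and 26.7% at 10 RPKM, and the RNA median ratio was 1.38 by the highest transcript and 0.945 against genes with as many transcripts. Input ratios (Brm and Polybromo control and knockdown, then Osa control and knockdown) were 0.908, 0.857, 0.329 and 0.540 by the highest transcript, 1.16, 1.09, 0.594 and 1.89 over genes with 1 transcript (10 here), and 1.25, 1.14, 0.343 and 0.5002 against genes with as many transcripts.

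Genes past 2-fold in control ChIP, in either direction, were 1 for both Brm and Polybromo without an input floor, 2 for both with the mean of both inputs, and 1 for Polybromo by the highest transcript. For Brm and Polybromo the shares of kept features past 2-fold under these settings ran from 10.3% to 13.9%. For Osa they were 3 of 22 genes with the median input as pseudocount (11% of features), 35 of 63 without a floor (44%), 2 of 2 with an upper-quartile floor (45.6%) and 5 of 16 by the highest transcript (44.3%). The Osa control median was 1.87 with the upper-quartile floor and -0.14 with the input of Brm and Polybromo. Changes past 2-fold for Brm were 5 with a pseudocount of 1 RPKM (19.3% of features), without a floor (19.8%) or with the mean of both inputs (31%), and 1 with the median input as pseudocount (5.56%), the upper-quartile floor (13.9%) or the floor in both conditions (7.03%). For Polybromo they were 1 with the median input as pseudocount (7.51%) or the upper-quartile floor (18.1%), and 2 by the highest transcript (26.4%) or with the floor in both conditions (10.9%). For Osa they were 4 of 23 with the median input as pseudocount (32.4%), 36 of 71 without a floor (58.3%), 1 of 3 with the upper-quartile floor (53.5%), 5 of 12 by the highest transcript (58.6%) and 2 of 12 with the floor in both conditions (40.9%). Without Kif3C the control share of reads was 1.35% in the Brm and Polybromo input and 0.461% in the Osa input.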

Other observations

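In 1 member of the TGF-beta family, myo, a single transcript of 3 held the higher Piwi knockdown value. That transcript of 3612 bases had 0.74 RPKM (24 reads) in the EGFP library, 3.27 (106 reads) in the Piwi, 1.46 (50 reads) in the Mael and 1.02 (18 reads) in the Brm knockdown. The other 2 transcripts had 2.51 and 2.42 RPKM in the EGFP library and 2.59 and 1.85 in the Piwi knockdown. The gene as a whole had a log2 ratio of 0.42, under the 2-fold rule. This transcript was chosen after its values were seen, and how reads were divided between transcripts is not given in the sources used here.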
